A study of Populus trichocarpa with 12 samples.

Results

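Potri.001G054600 and Potri.001G184300 are a pair of loci on chromosome 1 of black cottonwood (Populus trichocarpa), taken as laccases. They were chosen because, among the laccases, their mRNA levels stood lowest relative to wild type in developing xylem of trees that overexpress miR397a. They are 2 of the 41335 loci in the deposited count table, and both passed the low-count filter that left 26298 loci. RNA was sequenced from 9 transgenic trees, lines 1, 3, 5, 6, 9, 10, 17, 26 and 30, and from 3 wild-type trees, all of the Nisqually-1 background and grown in a greenhouse. The lines carry PtrMIR397a driven by a CaMV 35S promoter, a viral promoter that is active in most plant tissues; developing xylem was the tissue measured. The submitters describe the lines as individual trees and as biological replicates, with 1 tree sequenced per line. The table gives identifiers alone, and the reference gene table matched 0 of them. The identity of the pair as laccases therefore rests on prior knowledge of the poplar gene family and was not checked on sequence, and the tissue label was not checked on marker genes.

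Laccases are secreted copper oxidases. In the walls of wood cells they oxidise monolignols, the alcohol precursors of lignin, into radicals that couple into the polymer. miR397 is a plant microRNA that pairs with laccase mRNAs within their coding sequence and directs their cleavage. Several laccase genes are active together in poplar xylem.

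Potri.001G054600 had the fewer reads of the pair. In the lines its level, in CPM (read counts scaled to library size by the TMM method), was 1.98 in line 6, 2.27 in line 10, 2.77 in line 3, 3.59 in line 9 and 3.66 in line 1. It was 3.87 CPM in line 26, 4.46 CPM in line 5, 5.08 CPM in line 17 and 5.95 CPM in line 30. In wild type it was 22.9, 27.2 and 28.8 CPM in trees 1, 2 and 3. The groups stood far apart: the lowest wild-type tree had 3.84 times the level of the highest line. The lines averaged 3.74 ± 1.30 CPM (SD, n = 9), against 26.3 ± 3.05 CPM for wild type (SD, n = 3), so that the lines held 14.2% of the wild-type mean. These values rest on 31 to 105 reads per line, 609 in all, and on 258, 735 and 331 reads in wild type.

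Potri.001G184300 had more reads, and its groups were also separate. In the lines its level was 15.7 CPM in line 6, 17.3 CPM in line 9, 17.9 CPM in line 3, 18.0 CPM in line 10 and 18.3 CPM in line 30. It was 22.2 CPM in line 26, 25.4 CPM in line 5, 28.8 CPM in line 1 and 31.2 CPM in line 17. In wild type it was 165 CPM in tree 1, 80.7 CPM in tree 2 and 118 CPM in tree 3. No line reached a wild-type tree, with a narrower margin: the lowest wild-type tree had 2.58 times the level of the highest line. The lines averaged 21.6 ± 5.59 CPM (SD, n = 9), against 121 ± 42.3 CPM for wild type (SD, n = 3), and the lines held 17.8% of the wild-type mean. The locus had 3595 reads over the lines and 5402 over the wild-type trees. In these whole-tissue libraries, fewer cells that express a gene and less RNA per cell cannot be told apart. Levels of the pair were not compared with each other, because transcript lengths were not used here.

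**Figure D1:**
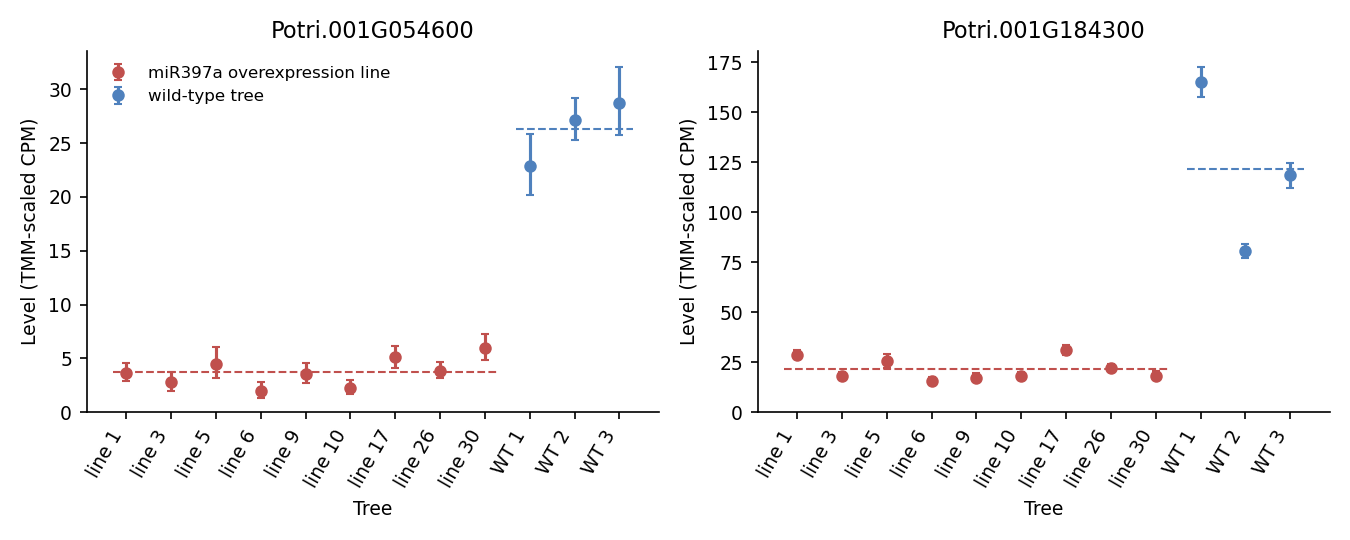
Level of Potri.001G054600 (left) and Potri.001G184300 (right) in each of the 12 trees, in TMM-scaled CPM. Points are single libraries, bars are exact 95% Poisson intervals for counting error, and dashed lines are group means (3.74 and 26.3 CPM on the left, 21.6 and 121 CPM on the right, for lines and wild type); no line reaches a wild-type tree at either locus.

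On the log2 scale the fitted difference between lines and wild type was -2.82 ± 0.22 (SE) at Potri.001G054600, a 7.06-fold lower level. At Potri.001G184300 it was -2.48 ± 0.21 (SE), 5.59-fold lower. Both are descriptions with no test, since the pair was chosen on this contrast. For the same reason their place among the 21 loci called lower by edgeR (quasi-likelihood test, adjusted p under 0.05 by Benjamini-Hochberg; 0.0799% of the loci tested) is fixed by the choice. Lines and wild type also failed to overlap, with the lines lower, at 1.18% of tested loci. In the same fit 6 tested loci had a larger fall, all of them neighbours on chromosome 3, with at most 23.5 CPM in wild type. The level of Potri.001G184300 depended on which wild-type trees were used: its log2 fold change was -2.20 without tree 1 and -2.71 without tree 2. That of Potri.001G054600 stayed between -2.93 and -2.74 whichever tree was left out.

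The 10 other loci called lower on chromosomes 6, 8, 9, 10 and 16 are also taken as laccases, on the same prior knowledge, and they too were chosen on this contrast. Their median log2 fold change was -1.52, beside -0.00016 over all tested loci. The next locus after the pair was Potri.009G156800 at -2.14 ± 0.21 (SE), followed by Potri.009G156700 at -2.03 ± 0.32 (SE) and Potri.008G073700 at -1.94 ± 0.13 (SE). The smallest fall was at Potri.006G096900, -1.20 ± 0.09 (SE). Potri.001G184300 and Potri.009G156800 thus differed by -0.34 in log2 fold change, with a standard error of 0.21 for each. These standard errors do not give the error of the difference, since both loci were measured in the same trees. Within trees, reads of Potri.001G184300 per read of Potri.009G156800 were 0.276 to 0.376 in the lines and 0.381 to 0.458 in wild type. The difference was not tested. At Potri.009G156600 the log2 fold change was -1.69 and at Potri.016G112000 it was -1.68. Potri.006G097000 and Potri.006G097100 stood at -1.37 and -1.36, Potri.016G112100 at -1.34 and Potri.010G183600 at -1.32.

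The order was much the same inside single lines. With each locus set to its own wild-type mean, Potri.001G054600 had the lowest relative level of the 12 loci in 7 of the 9 lines and the second lowest in lines 5 and 30. Potri.001G184300 was lowest in line 30, second lowest in 5 lines and the third lowest in lines 5, 6 and 9. All lines are set against the same 3 wild-type trees here, so the lines are not independent in this ranking. The pair was chosen on its fall in these same lines. The ranking and the lower shares given below therefore follow largely from the choice and add no support. The relative level ran from 7.52% of the wild-type mean in line 6 to 22.6% in line 30 at Potri.001G054600. At Potri.001G184300 it ran from 12.9% in line 6 to 25.7% in line 17. Of the summed CPM of the 12 loci, Potri.001G054600 made up 0.522 ± 0.149% in the lines (SD, n = 9) and 1.18 ± 0.230% in wild type (SD, n = 3), with no overlap between groups. Potri.001G184300 made up 3.04 ± 0.461% in the lines and 5.30 ± 1.40% in wild type, and there the highest line, at 3.84%, overlapped the lowest wild-type tree, at 3.82%.

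**Figure D2:**
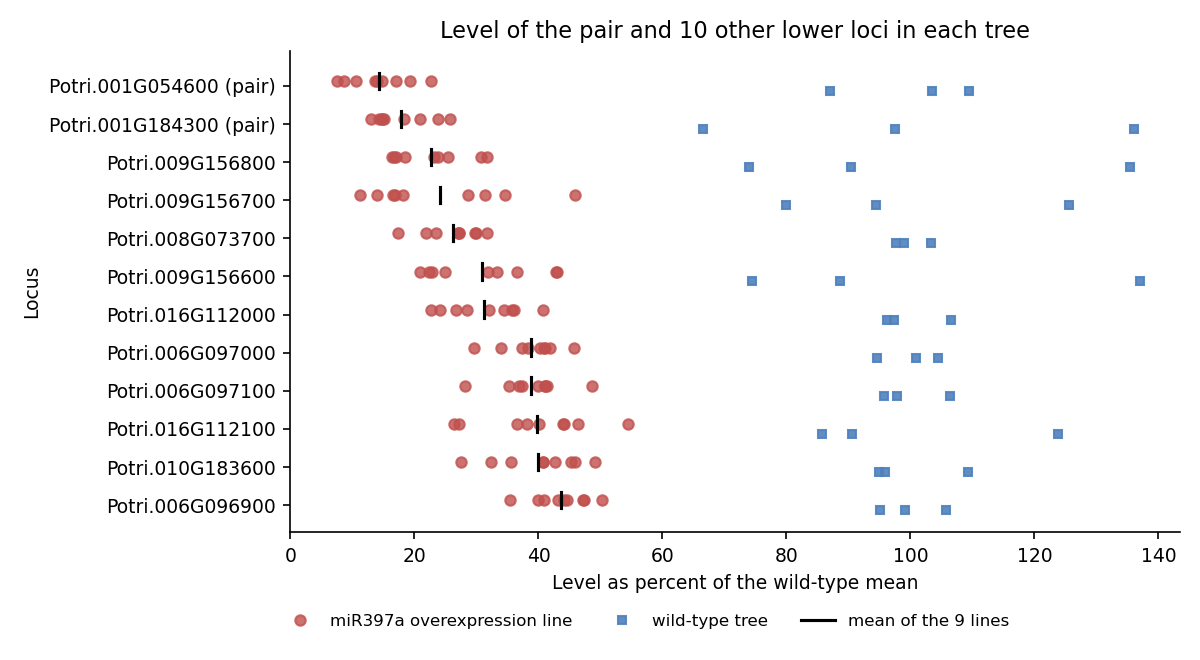
Level of the pair and of the 10 other lower loci in each tree, as percent of the wild-type mean of that locus. Circles are the 9 lines, squares the 3 wild-type trees and black bars the mean of the lines; the pair has the lowest means, 14.2% and 17.8%, against 22.6% for the next locus and 43.6% for the last.

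No tested locus close to either member was called, but so few loci were called at all that these counts of 0 say little. Of the 5 tested loci on each side of Potri.001G054600, in the order of identifiers, 0 of 10 were called in either direction (edgeR, smallest adjusted p = 0.37; 0.0913% of all tested loci were called), with 1 unadjusted p below 0.05 and log2 fold changes from -0.47 to 0.76. The locus directly before it, Potri.001G054500, had 68.1 ± 10.6 CPM in the lines and 63.4 ± 3.94 CPM in wild type. The locus directly after it, Potri.001G054700, had 5.87 ± 1.64 CPM in the lines and 5.93 ± 0.894 CPM in wild type (SD, n = 9 and n = 3). Around Potri.001G184300, 0 of 10 loci were called (edgeR, smallest adjusted p = 0.651) and 0 had an unadjusted p below 0.05, with log2 fold changes from -0.36 to 0.37. Its nearest tested neighbours were Potri.001G184200, at 3.69 ± 0.375 CPM in the lines and 3.50 ± 0.258 CPM in wild type, and Potri.001G184400, at 0.924 ± 0.254 CPM in the lines and 0.698 ± 0.0781 CPM in wild type. Each member of the pair has 1 transcript model in the table, and 0 other loci had counts identical to either in all 12 trees. The sources used here do not say how reads with several alignments were treated, so reads shared with other laccases cannot be told apart from their own.

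**Figure D3:**
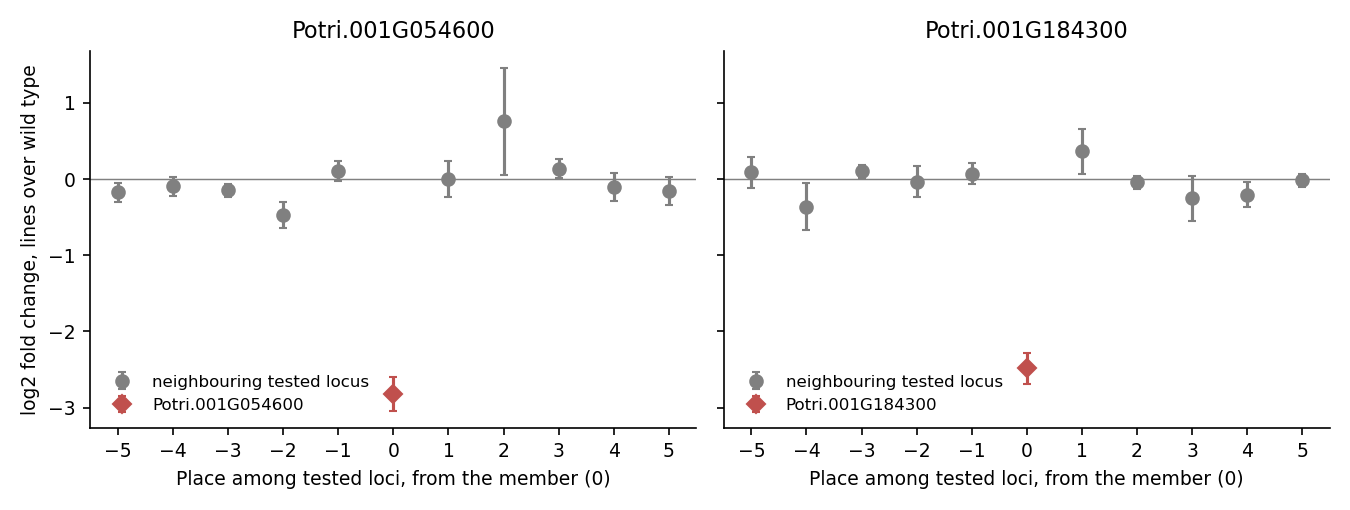
Log2 fold change of lines over wild type for each member of the pair (diamond) and for the 5 tested loci on each side of it (circles), in the order of identifiers; bars are standard errors. The members stand at -2.82 and -2.48, and their neighbours between -0.47 and 0.76.

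The lines are separate trees, and their spread at both loci is given beside the spread that counting alone would give. At Potri.001G054600 the highest line had 3.01 times the level of the lowest. Its coefficient of variation over the lines was 34.7%, where counting alone would give 12.7%. With the counting variance subtracted it was 32.3%. All 8 pairs of lines adjacent in level had overlapping 95% Poisson intervals, whereas those of line 30 (4.84 to 7.25 CPM) and line 6 (1.34 to 2.80 CPM) did not overlap. At Potri.001G184300 the highest line had 1.99 times the level of the lowest, with a coefficient of variation of 25.8% and 5.27% from counting. There 7 of 8 adjacent pairs overlapped, and the exception was the step from line 30 to line 26. For comparison, the median coefficient of variation over the lines was 18.4% at the 10 other lower loci, with a range of 10.2% to 48.1%. Those on chromosome 9 varied by 26.3% to 48.1%, so the spread of the pair was not particular to it. Over all tested loci, which differ in depth, the median was 16.1%.

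The spread of each member over the 3 wild-type trees is given as a description, since n = 3 is too few to compare spreads. Potri.001G054600 varied by 11.6% (coefficient of variation, n = 3), near the 11.1% median of all tested loci. Potri.001G184300 varied by 34.8% against 2.42% from counting, and the 3 trees did not overlap in their intervals. Of the 10 other loci, the 3 on chromosome 9 varied most in wild type, by 23.3% to 32.8%, and the remaining 7 varied by 2.98% to 20.7%. Reads of Potri.001G184300 per read of Potri.001G054600 accordingly ranged widely: 6.18 ± 1.62 in the lines (range 3.07 to 7.94) and 4.76 ± 2.20 in wild type (2.97 to 7.21), so that the groups overlapped. A stretch of 9 loci on chromosome 5 that takes very different shares of the reads held 18.9%, 2.80% and 16.0% of reads in wild-type trees 1, 2 and 3, the same order as Potri.001G184300. Its part in that spread was not tested. With the stretch left out of the fit the log2 fold change of Potri.001G184300 was -2.48. That value is a difference between the groups and does not bear on the spread among the wild-type trees.

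Across the 9 lines, Potri.001G184300 had its highest r among the 10 other lower loci with those of chromosome 9. This is a description over 9 libraries, singled out after the values were seen. Pearson r of log2 CPM was 0.93 with Potri.009G156800 and 0.92 with Potri.009G156600, which placed them 4th and 6th of all tested loci in likeness, and 0.67 with Potri.009G156700. Lines 17 and 1 were the highest and line 6 the lowest at Potri.009G156800 too, with 90.6, 87.8 and 46.6 CPM. The wild-type trees kept the order of Potri.001G184300 as well, with 387, 211 and 258 CPM in trees 1, 2 and 3. Reads of Potri.001G184300 per read of Potri.009G156800 were 0.337 ± 0.0319 in the lines (range 0.276 to 0.376) and 0.422 ± 0.0384 in wild type (0.381 to 0.458). This ratio varied by only 9.46% over the lines and 9.11% over wild type, whereas Potri.001G184300 alone varied by 25.8% and Potri.009G156800 alone by 26.3% over the lines. Per read of Potri.009G156600 the ratio was 0.280 ± 0.0297 in the lines and 0.477 ± 0.0496 in wild type. Whether these loci share reads was not tested.

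For Potri.001G054600, r with the 10 other lower loci was more even. It ran from 0.37 (Potri.010G183600) to 0.71 (Potri.009G156600), with a median of 0.62, and all 10 were positive. For Potri.001G184300 all 10 were positive too, from 0.28 (Potri.016G112100) to 0.93, with a median of 0.60. The median r over all tested loci was 0.03 for Potri.001G054600 and 0.02 for Potri.001G184300. Ranked by r among all tested loci, the 10 loci stood between places 1232 and 7376 for Potri.001G054600. For Potri.001G184300 they stood between places 4 and 7830. Many other tested loci thus had a higher r than most of the 10. Outside the laccases, the loci most like Potri.001G054600 over the lines were Potri.014G073300 (r = 0.97), Potri.007G116100 (r = 0.96) and Potri.019G033200 (r = 0.96). Those most like Potri.001G184300 were Potri.011G108200 (r = 0.95), Potri.016G121100 (r = 0.94) and Potri.009G042200 (r = 0.94). None of these 6 was called between lines and wild type (edgeR adjusted p from 0.435 to 0.912). Only 0.0913% of all tested loci were called, so that count says little of these 6. Potri.014G073300 had 27.2 CPM in the lines and 28.3 CPM in wild type. These are the best matches among 26298 loci over 9 libraries, and say nothing of shared control.

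The r between the members themselves was similar to the median r of each with the 10 other lower loci (0.62 and 0.60). Over the lines, r was 0.56 (exact permutation p = 0.115, two-sided) and Spearman rho was 0.72 (exact permutation p = 0.0369); adjusted over the 9 relations computed these were 0.173 and 0.111. Line 30 was the highest line for Potri.001G054600 and the middle one for Potri.001G184300. Its ratio of the pair was the lowest of the lines, but its gap to the next was 0.362 of their range, within Dixon's 95% critical value for 9 values. When lines 6 and 30 were left out, the outermost for Potri.001G054600, r was 0.77 (exact permutation p = 0.0415).

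**Figure D4:**
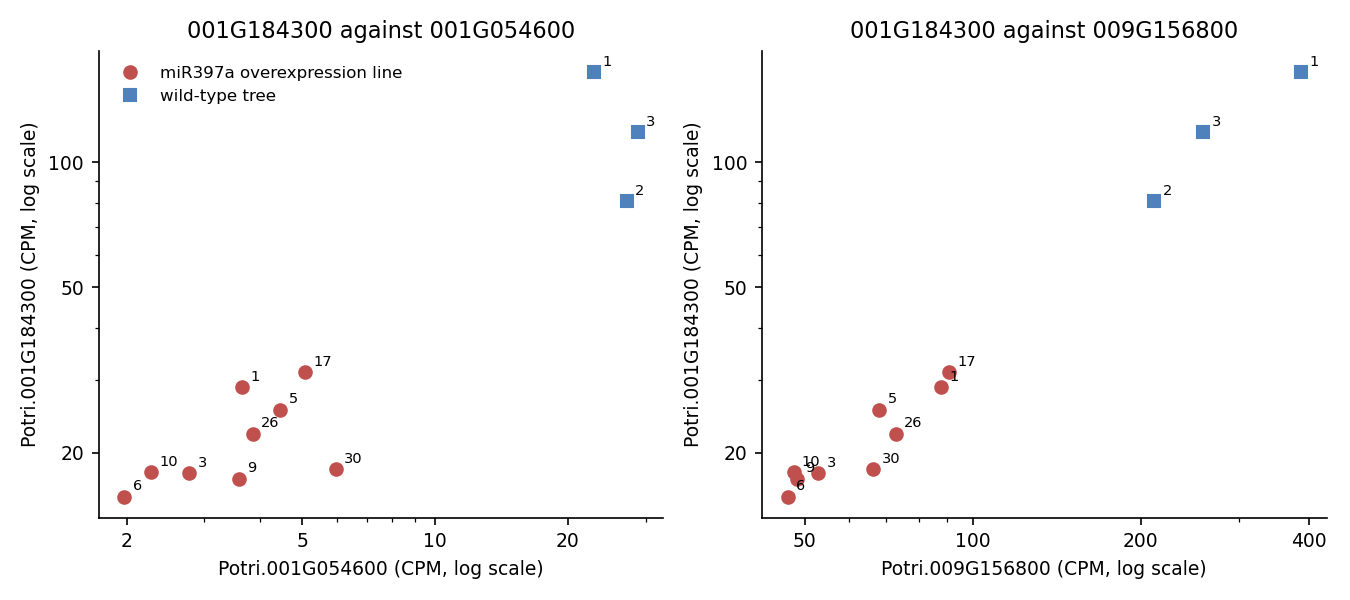
Level of Potri.001G184300 against Potri.001G054600 (left) and against Potri.009G156800 on chromosome 9 (right), in TMM-scaled CPM on log axes, with each tree labelled by its line or tree number. On the left line 30 is the highest line for Potri.001G054600 and the middle one for Potri.001G184300 (r = 0.56 over the 9 lines), and on the right lines and wild-type trees keep nearly the same order at both loci (r = 0.93 over the 9 lines).

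Over the lines, both members had a positive r with the 10 other lower loci taken as a sum. Their sum averaged 681 ± 102 CPM over the 9 lines, against 2109 ± 178 CPM over the 3 wild-type trees (SD). The relation with the sum was chosen for testing with earlier results of these same lines known. A group of loci that holds the pair was already known to vary with the locus described next. A positive r could thus be foreseen in part, and the p-values here are no independent support. The same limit holds for the p-values given above for the members with each other. For Potri.001G184300, r with the log2 sum was 0.79 (exact permutation p = 0.00784; adjusted over 9 relations 0.0696, over the 5 planned ones 0.0387) and rho was 0.87 (exact permutation p = 0.00451; adjusted 0.0406 and 0.0225). Without lines 6 and 1, r was 0.68 (exact permutation p = 0.104), a similar size that no longer passed the test with 7 lines, and leaving out 1 line gave 0.72 to 0.83. For Potri.001G054600, r was 0.73 (exact permutation p = 0.0232; adjusted 0.0696 and 0.0387), rho was 0.75 (exact permutation p = 0.0255; adjusted 0.111 and 0.0614), and r without lines 6 and 1 was 0.77 (exact permutation p = 0.0361).

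Potri.011G041300, a locus with 6446 reads in the lines and 2 in the wild-type libraries, was set beside the pair because a group of loci that holds the pair was already known to stand lower where it stood higher. The sign of the relation was thus known beforehand on these same lines, and it is given as a description with no test. It was highest in line 10, at 81.7 CPM, next in line 6, at 56.5 CPM, and lowest in line 1, at 23.4 CPM. Lines 6 and 10 were also the lowest for Potri.001G054600. For that locus r was -0.74 and rho was -0.65. Without both of those lines r was -0.27, while leaving out any 1 line gave -0.80 to -0.67. The size of r thus depended on those 2 lines together. With library totals r was -0.54. For Potri.001G184300, r was -0.61 and rho was -0.67, with r = -0.52 without lines 10 and 6.

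Depth and read composition were examined over the same lines, after the data were seen. Library totals over loci ran from 8015226 reads in line 5 to 34112839 in line 26, and from 12580140 to 23611857 in wild type. With the log2 total, r was -0.25 for Potri.001G054600 (rho = -0.17; exact permutation p = 0.529 and 0.678; adjusted 0.595 and 0.678) and -0.06 for Potri.001G184300 (rho = 0.20; exact permutation p = 0.882 and 0.613; adjusted 0.882 and 0.678). With the log2 share of the chromosome 5 stretch, r was -0.62 for Potri.001G054600 (rho = -0.57; exact permutation p = 0.0815 and 0.121; adjusted 0.147 and 0.181) and -0.41 for Potri.001G184300 (rho = -0.37; exact permutation p = 0.268 and 0.336; adjusted 0.344 and 0.432). Without lines 5 and 26, whose log2 total lay farthest from the median, r with the total was -0.33 for Potri.001G054600 and 0.18 for Potri.001G184300. Without lines 26 and 10, whose log2 share lay farthest from the median, r with the share was -0.68 for Potri.001G054600 and -0.47 for Potri.001G184300. The relation with the share depended on scaling and on single lines. With library totals r was -0.81 for Potri.001G054600 and -0.74 for Potri.001G184300. The adjusted p for Potri.001G054600 was then 0.0334 (exact permutation), and it was 0.0334 to 0.342 over all alternatives. Library totals make no allowance for read composition: the CPM of other loci falls as the stretch takes more reads. A negative r is thus partly built in there, and that p is no support for a relation. Without line 17, r was -0.14 for Potri.001G184300.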

How the data were processed

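The authors deposited 1 table of raw read counts per transcript model, with 1 column per tree; columns were matched to the 12 trees by line or tree number. Groups came from sample titles, since the treatment label repeats the transgene for wild type. The tools named in the submitters' processing notes are bedtools 2.14.2, Bowtie, TopHat and TopHat2 2.0.3; the sources used here give neither their roles nor the genome build and annotation. Reads are counted in every model of a locus, so the model with most reads was kept for each of 41335 loci. After filterByExpr (minimum count 10) and TMM scaling, a robust quasi-likelihood model was fitted in edgeR 4.0.16 (R 4.3.3) to 9 lines against 3 wild-type trees, with Benjamini-Hochberg adjustment at 0.05; the fit was tested on simulated data. The SE is the log2 fold change divided by the square root of F. Correlations used log2 CPM with prior count 2 and exact permutation of all orders of the 9 lines. Poisson intervals were computed with scipy 1.17.1 and cover counting error only.

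The pair, the lists and the tests were chosen with earlier results of these data known. Laccases were to be found by gene descriptions; as no identifier matched, the planned substitute was used, the loci called lower on chromosomes 6, 8, 9, 10 and 16. The lignin pathway list, tissue markers, laccases not called and the miR397a site were not analysed here. Other loci named are the nearest tested neighbours, the 3 loci most like each member and Potri.011G041300. Alternatives were other scalings and filters, DESeq2 1.42.0, limma-voom (limma 3.58.1), all transcript models as rows, and leaving out each tree.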

Additional observations from a re-analysis of the deposited data

How the results depend on the processing

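Over 21 alternatives the log2 fold change of Potri.001G054600 ranged from -2.93 to -2.73 and that of Potri.001G184300 from -2.71 to -2.20, moves smaller than 1 SD between lines; leaving out a tree cannot turn either direction, since the groups do not overlap. Of the 10 other lower loci, 8 to 10 were called lower under each alternative. They were chosen as called lower in the main fit to the same counts, so this is largely fixed by the choice. The count of called loci (24, of which 21 lower) was 131 (59 lower) with DESeq2 and 52 (44 lower) with all transcript models; leaving out 1 tree gave 16 to 65 (14 to 54 lower), the upper ends without line 1. The cause was not tested. Among the correlations across lines, with library totals r with the summed other loci was 0.87 for Potri.001G054600 and 0.90 for Potri.001G184300, both past the threshold (adjusted p over all alternatives 0.0165 to 0.284 and 0.00709 to 0.17). Library totals leave differences in read composition in every CPM, which raises r between loci, so these values are no added support. Leaving out 1 line gave 0.54 to 0.85 and 0.72 to 0.83, and 0.42 to 0.83 for the pair (past the threshold without line 30). The r of Potri.001G184300 with the library total, near 0, changed sign when a line was left out (-0.16 to 0.21). The r with the chromosome 5 share was -0.84 to -0.48 for Potri.001G054600 and -0.60 to -0.14 for Potri.001G184300 when 1 line was left out. With library totals it was -0.81 and -0.74, where a negative r is partly built in. No paired analysis was possible because line numbers and tree numbers are unrelated. With 31 to 105 reads per line, differences between neighbouring lines at Potri.001G054600 were not detectable at this depth.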
